A study of Mus musculus with 6 samples.

Results

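The genes described here encode the Notch receptors, their ligands and the Notch regulator Dtx1, measured in PICs and satellite cells of young mouse muscle. The set holds 10 genes, Notch1, Notch2, Notch3, Notch4, Dll1, Dll4, Jag1, Jag2, Dner and Dtx1. Its members are all probe sets whose only gene symbol in the platform annotation is 1 of these names, which gave 21 of the 34945 probe sets with 1 symbol. PICs, interstitial cells named for the protein PW1, and satellite cells, the stem cells of skeletal muscle, were sorted by flow cytometry on CD34 and Sca1. The source was hindlimb muscle, digested, of mice of the C57 black 6 strain at 7 to 9 days of age. All 6 samples come from unmanipulated animals of 1 strain, and the labels name no transgene, injury or drug. Each population had 3 arrays described as biological replicates, and the labels do not say how many animals gave each sample. If they share a source, the p-values measure a spread that may be partly technical. Arrays of 1 population correlated at 0.954 to 0.987 over the probe sets above the low value level and arrays of different populations at 0.821 to 0.866.

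Notch receptors are single-pass membrane proteins that bind Delta and Jagged ligands on neighbouring cells. Binding leads to cleavage by ADAM proteases and gamma-secretase, and the freed intracellular domain joins RBPJ in the nucleus and activates genes of the Hes and Hey families. In muscle the pathway is known for keeping satellite cells undifferentiated, with Dll1 on myogenic cells as a known ligand. Notch4 and Dll4 are best known from endothelium and Notch3 from mural cells of vessels.

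Transcript levels differed across the set in both directions. Of the 14 member probe sets that passed the filter on low values (log2 above 4, an intensity of 16, on at least 3 of 6 arrays), 6 were called higher in satellite cells, covering Notch1, Notch3, Dll1 and Jag2. A further 3 were called higher in PICs, covering Dner and Dtx1, and 5 were not called. Dtx1 passed the filter through its PIC arrays alone. A call needed an adjusted p under 0.05 in limma and a difference of at least 1 on the log2 scale. Over all 18433 probe sets tested, 27.9% were called, 15.1% towards PICs and 12.8% towards satellite cells. The median difference of the 14 was -0.70, against -0.07 over all probe sets, and the median size of the difference was 1.88, against 0.57. The arrays of the populations did not overlap for 11 of the 14, and for 59.9% of all probe sets tested. The members were chosen with earlier results of these data known. The values over all probe sets are therefore given for scale, and no conclusion about the set is drawn from the contrast. In bulk samples such as these, fewer cells of a type and less RNA per cell cannot be told apart.

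The regions before the transcription starts of 4 members are shown because they stand for each kind of result: Dll1 and Notch1 were higher in satellite cells, Dner was higher in PICs and Jag1 was not called. They are the 250 bases before the outermost RefSeq start of each gene on GRCm38.p6, on the minus strand, at chr17:15376933-15377182, chr2:26503823-26504072, chr1:84696222-84696471 and chr2:137116521-137116770. Capitals mark matches to CAGCTG, an E-box of the kind bound by myogenic factors, and to GGGCGG or its reverse complement CCGCCC, a GC box. The RBPJ core TGGGAA, or TTCCCA on the other strand, was also searched.
Dll1: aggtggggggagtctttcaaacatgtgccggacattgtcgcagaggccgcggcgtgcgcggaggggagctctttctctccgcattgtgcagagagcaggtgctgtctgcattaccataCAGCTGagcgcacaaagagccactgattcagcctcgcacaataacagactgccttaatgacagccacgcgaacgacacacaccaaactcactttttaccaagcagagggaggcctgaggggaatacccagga
Notch1: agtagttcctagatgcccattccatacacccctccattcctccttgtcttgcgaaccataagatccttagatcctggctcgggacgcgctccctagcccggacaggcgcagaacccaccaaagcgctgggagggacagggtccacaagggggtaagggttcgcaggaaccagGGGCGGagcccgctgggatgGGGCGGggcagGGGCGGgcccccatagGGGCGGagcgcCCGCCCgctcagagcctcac
Dner: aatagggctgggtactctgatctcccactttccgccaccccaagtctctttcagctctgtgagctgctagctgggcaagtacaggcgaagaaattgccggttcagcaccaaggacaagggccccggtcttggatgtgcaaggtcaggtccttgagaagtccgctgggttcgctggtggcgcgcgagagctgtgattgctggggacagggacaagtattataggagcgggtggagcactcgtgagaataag
Jag1: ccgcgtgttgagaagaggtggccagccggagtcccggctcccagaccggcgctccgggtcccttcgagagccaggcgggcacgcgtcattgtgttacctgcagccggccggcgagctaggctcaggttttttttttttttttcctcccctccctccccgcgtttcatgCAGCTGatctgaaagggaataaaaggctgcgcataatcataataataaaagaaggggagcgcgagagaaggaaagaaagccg
In windows that run on to 50 bases after the start, 300 bases in all, the 10 genes had 11 entries, Dll1 having 2. None of the 11 held the RBPJ core on either strand, against 25.6% of 32851 promoter windows of that length. The E-box stood in 2 of the 11, against 16.3% of all windows, with its first base at -132 from the start in Dll1 and at -82 in Jag1. The GC box stood in 6 of the 11, against 35.7% of all windows, and Notch1 held 5 matches. These are matches of letters in short windows, not measured binding.

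**Figure D1:**
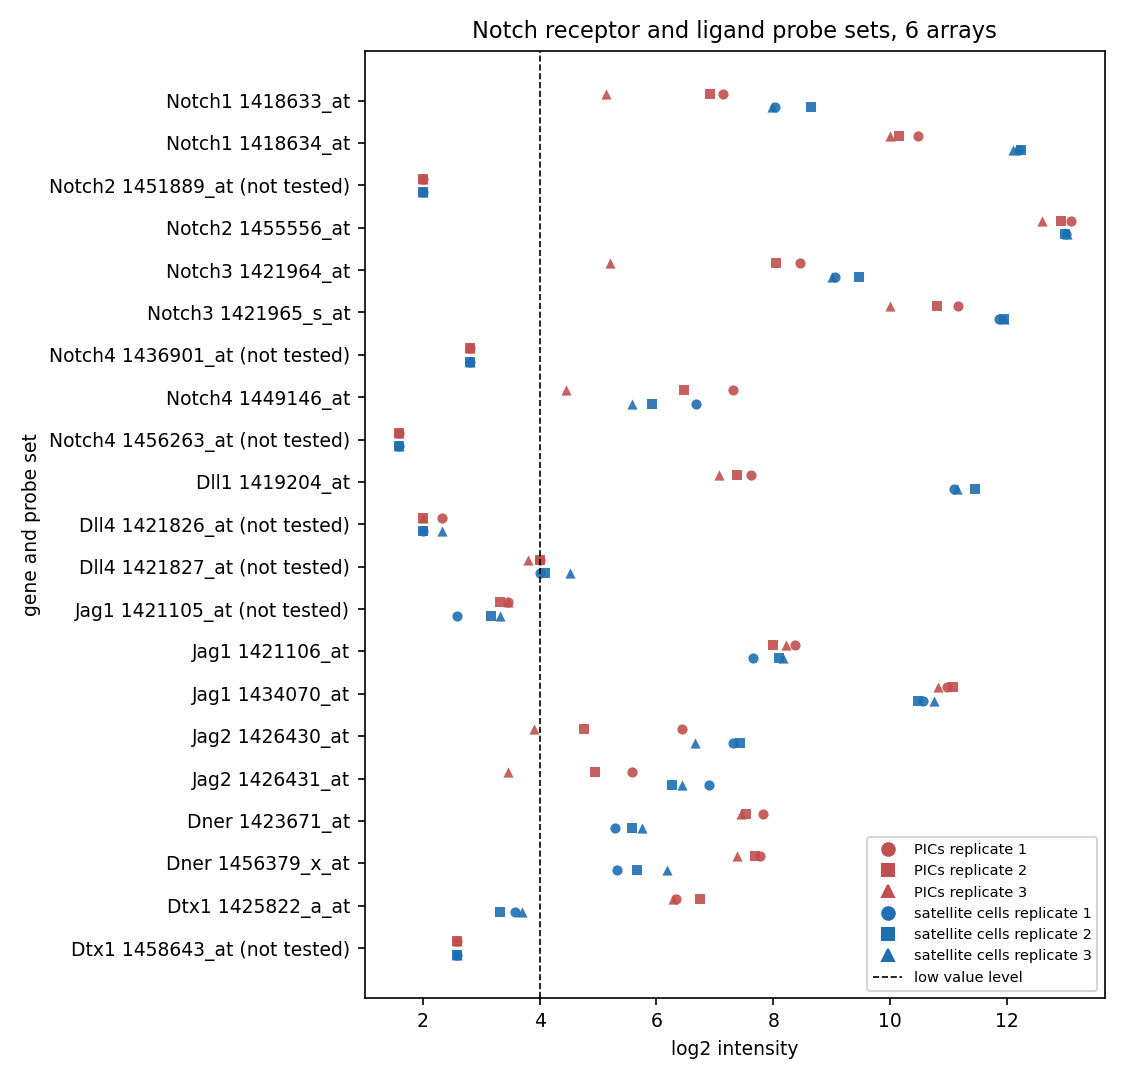
Log2 intensity of all 21 probe sets (rows) on the 6 arrays, with PICs in red and satellite cells in blue, 1 symbol shape per replicate number and the low value level of 4 as a dashed line. The Dll1 satellite arrays lie far to the right of the PIC arrays, Dtx1 is above the line in PICs alone, and PICs replicate 3 is the lowest array for both Notch3 and both Jag2 probe sets.

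Among the receptors, Notch1 was higher in satellite cells on both of its probe sets. Probe set 1418634_at had linear intensities of 1419, 1134 and 1027 in PICs replicates 1, 2 and 3 and of 4759, 4818 and 4421 in satellite replicates 1, 2 and 3. The satellite arrays lay close together and all stood above the PIC arrays. On the log2 scale the PIC mean was 10.21 ± 0.24 and the satellite mean 12.19 ± 0.07 (SD, n = 3 each), a fold of 3.94 (limma, adjusted p = 0.000241). The other Notch1 probe set, 1418633_at, read 141, 121 and 35 in PICs and 263, 400 and 253 in satellite cells. It gave a similar difference of -1.83 with a wide 95% interval, -3.16 to -0.49 (limma, adjusted p = 0.0338). PICs replicate 3 was the lowest of its arrays. That call was lost without PICs replicate 2 (adjusted p = 0.0520) and without any 1 satellite array (0.0656 to 0.109), and without the filter on low values (0.144).

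Notch3, the receptor known from mural cells, was also higher in satellite cells, with PIC arrays that spread widely. Probe set 1421965_s_at read 2299, 1794 and 1028 in PICs and 3743, 3950 and 3977 in satellite cells. The log2 means were 10.66 ± 0.59 and 11.92 ± 0.05 (SD, n = 3 each), a difference of -1.26 (limma, adjusted p = 0.0132). The arrays did not overlap, and PICs replicate 3 was lowest. Without PICs replicate 3 the difference was -0.94 (adjusted p = 0.00523), under the 2-fold threshold, and without the filter on low values the adjusted p was 0.0666. Probe set 1421964_at read 353, 265 and 37 in PICs against 535, 711 and 516 in satellite cells. It parted the populations too but was not called, at -1.94 with an interval from -3.99 to 0.10 (limma, adjusted p = 0.101). Leaving out PICs replicate 3 brought it to -0.93 (adjusted p = 0.0180), close to the difference of the other probe set without that array.

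Notch2 was bright in both populations and did not pass the threshold. Probe set 1455556_at read 8784, 7753 and 6230 in PICs and 8292, 8217 and 8349 in satellite cells. The PIC arrays ran from below to above the satellite arrays, which were nearly equal. Its difference was -0.14, with a 95% interval from -0.51 to 0.23 (limma, adjusted p = 0.477), so a 2-fold difference lay outside the interval.

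Notch4, the receptor known from endothelium, was not called and its interval was wide. Probe set 1449146_at read 159, 89 and 22 in PICs and 102, 61 and 48 in satellite cells, and the populations overlapped. The difference was 0.02, with an interval from -1.77 to 1.81 (limma, adjusted p = 0.986), so these arrays do not bound it within 2-fold. Both the highest and the lowest of the 6 arrays were PIC arrays.

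Among the ligands, Dll1 had the largest difference of the set. This Delta ligand has 1 probe set, 1419204_at, which read 197, 166 and 134 in PICs and 2183, 2817 and 2269 in satellite cells. The lowest satellite array thus stood far above the highest PIC array. The log2 means were 7.35 ± 0.28 and 11.23 ± 0.20 (SD, n = 3 each), a fold of 14.7 towards satellite cells (limma, adjusted p = 8.92e-05). All 3 PIC arrays were above the low value level of 16, so the probe set gave a signal in both populations. The defining satellite cell markers gave a signal in the PIC arrays as well. In PICs replicates 1, 2 and 3, Pax7 read 236, 87 and 81, Myf5 1355, 497 and 471, and Myod1 86, 21 and 33. The part of satellite cell RNA in the PIC readings of Dll1 was not tested. Over the alternatives that left out arrays the Dll1 difference stayed between -4.08 and -3.73.

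Jag2, a Jagged ligand, was called higher in satellite cells on both probe sets, near the threshold. Probe set 1426430_at read 87, 27 and 15 in PICs and 158, 173 and 101 in satellite cells, a difference of -2.10 (limma, adjusted p = 0.0352). Probe set 1426431_at read 48, 31 and 11 against 119, 77 and 87, a difference of -1.87 (limma, adjusted p = 0.0291). In each, the satellite arrays all stood above the PIC arrays, and PICs replicate 3 lay under the low value level. Both calls were lost without PICs replicate 2 (adjusted p = 0.106 and 0.0633), without any 1 satellite array (0.0553 to 0.108) and without the filter on low values (0.149 and 0.130). Without PICs replicate 3 the first probe set was not called (-1.53, adjusted p = 0.0677) and the second was (-1.27, adjusted p = 0.0154).

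Jag1, the other Jagged ligand, was not called on either tested probe set. Probe set 1434070_at read 2015, 2156 and 1815 in PICs and 1522, 1432 and 1727 in satellite cells. The PIC arrays all stood above the satellite arrays, by little. The difference was 0.36, with an interval from 0.04 to 0.67 (limma, adjusted p = 0.0615). Probe set 1421106_at read 330, 255 and 297 against 201, 273 and 287, with overlap and a difference of 0.22 (95% interval -0.22 to 0.67; limma, adjusted p = 0.355). Both intervals exclude a 2-fold difference. A test of the difference between Jag1 and Jag2 was not made.

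Dll4, the Delta ligand known from endothelium, had no probe set that passed the filter. Probe set 1421827_at read 16, 16 and 14 in PICs and 16, 17 and 23 in satellite cells, around the low value level. Probe set 1421826_at read 4 or 5 on every array. At these intensities no difference could be measured.

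Dner, a transmembrane protein with Delta-like repeats described as an atypical Notch ligand in neurons, was higher in PICs. Probe set 1423671_at read 227, 186 and 175 in PICs and 39, 48 and 54 in satellite cells, a fold of 4.18 (limma, adjusted p = 0.000309). Probe set 1456379_x_at read 220, 207 and 166 against 40, 51 and 73, a fold of 3.70 (limma, adjusted p = 0.00132). Neither probe set overlapped between populations, and both calls held in each of the 17 alternatives. The name of the second marks possible binding to related transcripts, and its interval, 1.29 to 2.49, overlapped that of the first, 1.64 to 2.48.

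Dtx1 encodes Deltex, a ubiquitin ligase that binds the intracellular part of Notch, and it too was higher in PICs. Probe set 1425822_a_at read 81, 107 and 78 in PICs and 12, 10 and 13 in satellite cells. All satellite arrays were under the low value level, so the fold has only a lower bound. Dtx1 was at least 5.49-fold higher in PICs (limma, adjusted p = 0.000142 for the fitted difference of 2.92). The probe set passed the filter on low values through its PIC arrays alone, so that p-value is not independent of the direction. Without the filter the adjusted p in limma was 0.00204. The second Dtx1 probe set, 1458643_at, read 6 on every array and was not tested. Dtx1 and Dner were thus the members with higher levels in PICs, while no classical receptor or Delta or Jagged ligand was called in that direction.

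**Figure D2:**
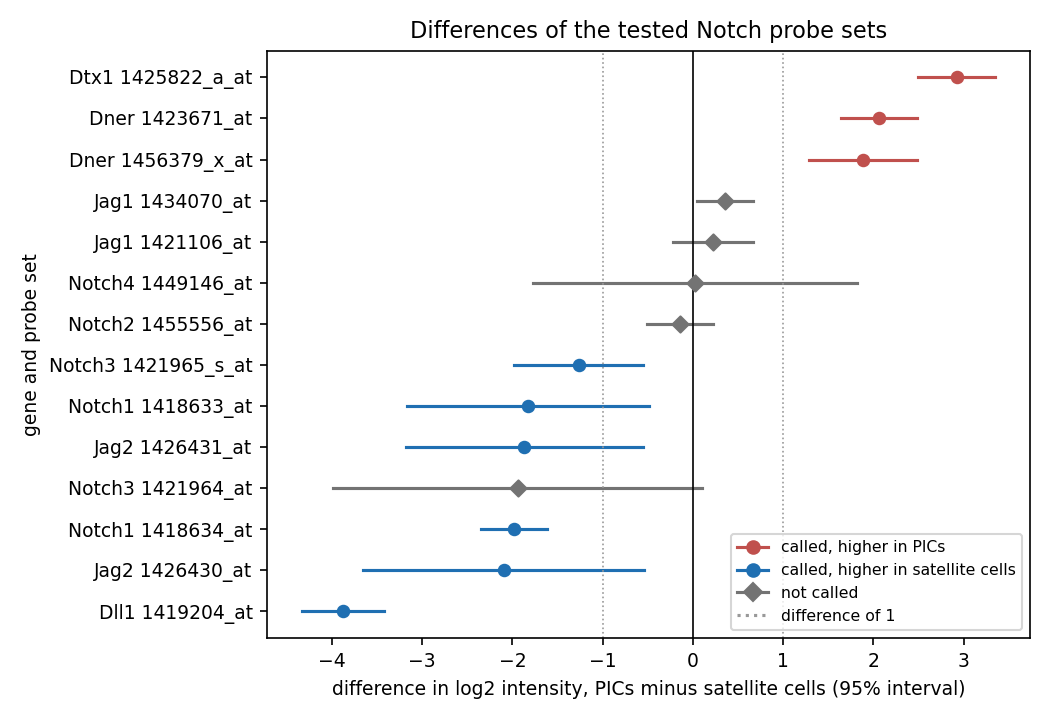
Difference in log2 intensity, PICs minus satellite cells, for the 14 tested probe sets (points) with 95% intervals from limma (bars), coloured by call, and dotted lines at a difference of 1 in each direction. Dll1 stands alone at -3.88, Notch1, Notch3 and Jag2 gather between -2.10 and -1.26, and Dner and Dtx1 lie between 1.89 and 2.92.

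The 7 probe sets that did not pass the filter belonged to 5 genes: 1 of Notch2, 2 of Notch4, 2 of Dll4, 1 of Jag1 and 1 of Dtx1. Probe set 1451889_at of Notch2 read 4 on all 6 arrays, while 1455556_at for the same gene passed the filter on all arrays. The Notch4 probe sets 1436901_at and 1456263_at read 7 and 3 on all arrays, and 1421105_at of Jag1 read from 6 to 11. Where another probe set of the gene passed the filter, the low one gives no level for the gene.

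Several members varied widely among the PIC arrays. PICs replicate 3 was the lowest PIC array for 13 of the 14 tested probe sets, all but 1421106_at of Jag1, and for 37.6% of all probe sets tested. From PICs replicate 1 to PICs replicate 3 the intensity differed 9.54-fold for 1421964_at of Notch3, 7.23-fold for Notch4 and 4.03-fold for 1418633_at of Notch1. The Jag2 probe sets were under the low value level in PICs replicate 3, so their gaps are bounds against an intensity of 16, at least 5.44-fold for 1426430_at and at least 3.00-fold for 1426431_at. With values under 16 set to 16, a gap of at least 4-fold in this direction was seen in 4 of the 14 member probe sets and in 1.76% of all probe sets tested. Dll1 (1.47-fold), Dner (1.30-fold and 1.33-fold) and Dtx1 (1.04-fold) varied little between the same arrays.

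Among the PIC arrays, endothelial markers followed the same order. The order was not particular to them. From PICs replicate 1 to 3 the summed intensity also fell for blood cell markers (1914, 226 and 88) and for Schwann and glial markers (12643, 5349 and 2029). All 12 of 12 endothelial markers were highest in PICs replicate 1 and lowest in PICs replicate 3 among the PIC arrays, against 26.3% and 37.6% of all probe sets tested. The summed intensity of the endothelial markers ran from 2437 to 8849 in PICs and from 4331 to 6505 in satellite cells. In satellite replicates 1, 2 and 3 it was 6505, 4548 and 4331. Notch4 and 1426431_at of Jag2 were also highest in satellite replicate 1. Both Notch1 probe sets, 1421964_at of Notch3 and 1426430_at of Jag2 were highest in satellite replicate 2, and 1421965_s_at of Notch3 in satellite replicate 3. Cdh5, the cadherin of endothelium, read 2146, 1683 and 362 in PICs and 1407, 851 and 658 in satellite cells. Of the other defining markers, Pecam1 read 107, 93 and 26 against 76, 76 and 73, and Kdr 665, 394 and 81 against 514, 303 and 188. None of the 12 was at the low value level on all arrays of a population, though Tie1 and Flt1 read 16 in PICs replicate 3. None was called between the populations in limma, 0 of them had an unadjusted p under 0.05, and the median difference was -0.05.

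Among the PIC arrays, all 8 tested mural cell markers were also lowest in PICs replicate 3, against 37.6% of all probe sets tested. The summed intensities of the list were 12170 to 25507 in PICs and 27818 to 31992 in satellite cells. Most of the satellite sum was Acta2, which read 6911, 3801 and 2766 in PICs and 20566, 20972 and 19289 in satellite cells. Without Acta2 the sums were 18596, 15717 and 9404 in PICs and 11426, 6846 and 10001 in satellite cells. Rgs5, the first of the list, read 8233, 5605 and 2444 in PICs and 7354, 4296 and 6232 in satellite cells. Of 8 tested, 2 were called higher in PICs, Cspg4 (2.23) and Pdgfrb (2.27), and 1 in satellite cells, Acta2 (-2.28). Of all 10855 genes tested with 1 probe set a gene, 16.7% were called towards PICs and 13.0% towards satellite cells. Abcc9 read 1382, 1156 and 591 in PICs and 973, 558 and 944 in satellite cells and was not called, and Higd1b, not tested, was under the low value level on every array. The part of endothelial and mural RNA in the levels of Notch1, Notch3, Notch4 and Jag2 was not tested. Without PICs replicate 3, Dll1 differed by -3.73 and Notch1 on 1418634_at by -1.88, and both were called.

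**Figure D3:**
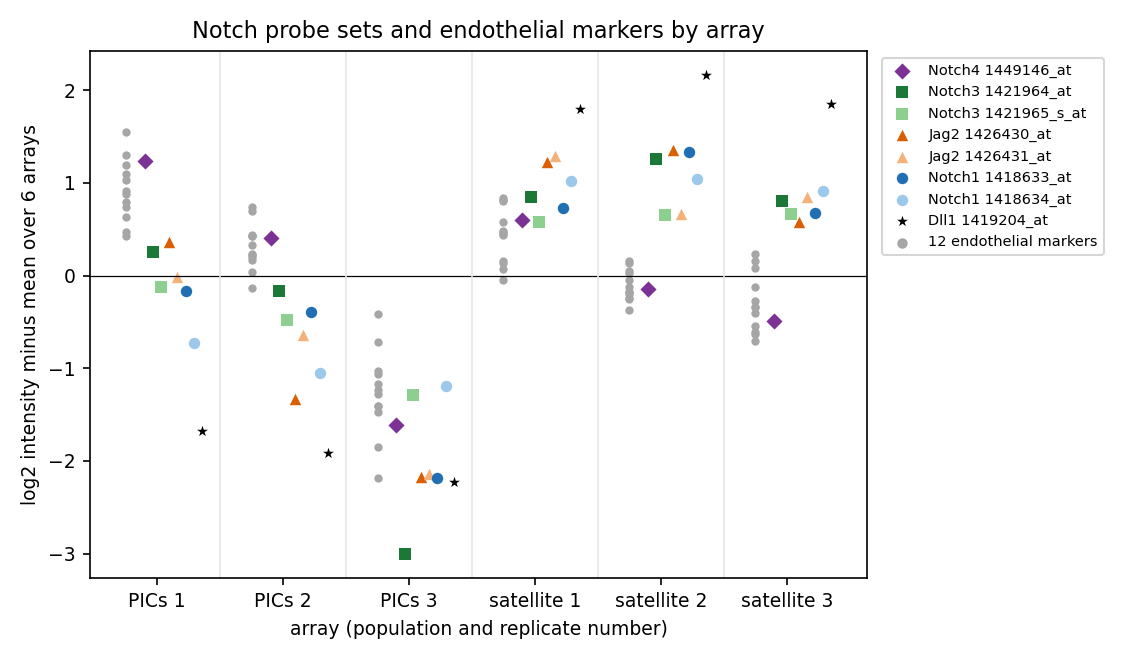
Log2 intensity minus the mean over the 6 arrays, for 12 endothelial markers (grey) and 8 member probe sets (coloured) on each array. The grey points are lowest in PICs replicate 3, and Notch4 lies among or near them on every array, while Dll1 is low in all PIC arrays and high in all satellite arrays.

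Markers of each population were read as well. The sort used CD34 and the lists were chosen with earlier results known, so the counts below are no independent check of the sort. Over all 10855 genes tested with 1 probe set a gene, 13.0% were called towards satellite cells and 16.7% towards PICs. All 10 of 10 satellite cell markers were called higher in satellite cells, Pax7, Myf5 and Myod1 among them, at -4.79, -3.95 and -5.84. For fibro-adipogenic progenitors, mesenchymal cells between the fibres, 9 of 9 tested markers were called higher in PICs, Pdgfra, Cd34 and Dcn among them, at 3.92, 1.92 and 2.09. Clec3b, also in that count, was under the low value level on all satellite arrays and passed the filter through its PIC arrays alone. Blood cell markers were uneven between arrays: their summed intensity was 1914 in PICs replicate 1, 2532 in satellite replicate 1 and at most 226 on any other array. Ptprc read 181 and 215 on those arrays and at most 9 elsewhere, Cd68 lay between 19 and 47 on all 6, and Adgre1 read 59 and 72 there and at most 25 elsewhere. Schwann and glial markers summed to between 2029 and 12643 in PICs and between 3655 and 10379 in satellite cells. Most of that sum was Mbp, which read 12073, 4908 and 1503 in PICs and 10116, 3558 and 4511 in satellite cells. Of 5 Schwann and glial markers tested, 2 were called higher in PICs, Cdh19 (108, 112 and 247 against 10, 9 and 8) and S100b (147, 141 and 148 against 71, 26 and 32), and the list median was 1.22. Cdh19 passed the filter on low values through its PIC arrays alone, so its call and its place in that median are not independent of the direction. Sox10, the first of that list, read 146, 78 and 43 in PICs and 60, 24 and 27 in satellite cells. Their part in the Notch results was not tested.

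Beyond the members, 47 other genes of the pathway were named on the array, and 38 were tested with 1 probe set a gene. Of these, 7 were called towards satellite cells and 6 towards PICs, the 6 with Dlk1, whose probe sets gave opposite calls. Of all 10855 genes tested this way 29.8% were called, 13.0% towards satellite cells and 16.7% towards PICs. Their median difference was 0.08, against -0.04 over all genes.

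Genes of the Notch target list were called higher in satellite cells in 4 of 6 tested and higher in PICs in 0. The list median was -1.16. Hey1, a repressor directly activated by Notch, read 308, 281 and 455 in PICs and 1247, 1639 and 1826 in satellite cells, a fold of 4.56 (limma, adjusted p = 0.000402). Hes6 was 4.39-fold higher in satellite cells (adjusted p = 0.000374). It is known as an antagonist of Hes1 that promotes differentiation, and not as a gene induced by Notch, so it is a family member in this list rather than a target. Heyl and Nrarp were close to the thresholds, at -1.28 (adjusted p = 0.0338) and -1.04 (adjusted p = 0.0471). Without PICs replicate 3 they were at -0.80 and -0.60 and were not called. In the fit over all probe sets neither Nrarp probe set was called, 1417985_at for its adjusted p of 0.0573 and 1417986_at for its difference of -0.98. In that limma fit Heyl was called on 1419302_at (-1.27, adjusted p = 0.00429) and 1438886_at (-1.28, adjusted p = 0.0420). Heyl probe set 1419303_at was not called (-1.59, adjusted p = 0.117). Hes1, the widely used target gene, was not called: it read 945, 1657 and 2418 in PICs and 1314, 1788 and 1976 in satellite cells. The populations overlapped, and the interval of the Hes1 difference ran from -0.95 to 0.76. Hey2 was not called (-0.65), and Hes5 and Hes7 lay at the low value level on all arrays.

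No gene of the nuclear complex or of receptor cleavage was called. In the nuclear complex 0 of 5 genes were called in limma, although 5 had an unadjusted p and 4 an adjusted p under 0.05. Rbpj, the DNA-binding partner of Notch, was at -0.58 (adjusted p = 0.00703), under the 2-fold threshold. Snw1 (-0.35) and Cir1 (-0.82) lay on the same side and Maml1, a coactivator of the complex, on the other (0.52, adjusted p = 0.0110). Another Rbpj probe set, 1448957_at, gave -1.51 among all probe sets and was called (adjusted p = 0.00293). Spen, a corepressor, was at -1.52 (limma, adjusted p = 0.0555). It was called in 5 of 17 alternatives, among them the replicate block (adjusted p = 0.0230) and the fit without PICs replicate 1 (adjusted p = 0.0392). Of the 8 proteases and gamma-secretase genes 0 were called in limma, and their differences ran from -0.22 for Psen2 to 0.73 for Furin. In this list 3 genes, Adam17, Aph1a and Furin, had unadjusted and adjusted p-values under 0.05, at differences of 0.35, 0.58 and 0.73.

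Enzymes that modify Notch or its ligands went both ways. Pofut1, which adds O-fucose to Notch, was 2.28-fold higher in PICs (limma, adjusted p = 0.00117). Its other tested probe set, 1456323_at, was not called (0.59, adjusted p = 0.0564 in limma among all probe sets). Of the fringe enzymes, which lengthen that sugar, Mfng was at -0.91 (adjusted p = 0.0777) and Rfng at 0.07, and Lfng did not pass the filter. The ligand-directed ubiquitin ligases Neurl1a and Neurl1b were 3.93-fold and 3.71-fold higher in satellite cells, while Mib1, which acts on the same ligands, was not called (0.11, 95% interval -0.19 to 0.41). The faint Neurl1a read 13, 13 and 23 in PICs, with 2 of 3 arrays under the low value level.

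The Deltex family went both ways. Dtx3 read 762, 739 and 537 in PICs and 157, 134 and 204 in satellite cells, 4.13-fold higher in PICs (limma, adjusted p = 0.000361), and Dtx3l was 2.07-fold higher in PICs. The Dtx3l call was lost without PICs replicate 3 (0.96), without satellite replicate 2 (0.88), without both arrays numbered 2 (0.92) and after a second quantile normalization (0.91). Its other probe set, 1439825_at, was at 1.30 and was not called (limma, adjusted p = 0.106 among all probe sets). Dtx4 was 2.10-fold higher in satellite cells (limma, adjusted p = 0.00560), and was at -0.84 and not called without PICs replicate 3. The other Dtx4 probe set, 1455711_at, was at -0.64 among all probe sets and was not called. Dtx2 was not called (0.60). Numbl, related to the Notch inhibitor Numb, read 336, 335 and 127 in PICs and 60, 86 and 81 in satellite cells and was 3.25-fold higher in PICs, and Numb itself was not called (0.17). The Numbl call was lost in 3 of 17 alternatives. These were the fit without the filter on low values (limma, adjusted p = 0.0634) and those without both arrays numbered 1 (0.101) or 2 (0.0969).

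Among atypical ligands, Ccn3, a secreted matricellular protein, read 5721, 7351 and 6645 in PICs and 665, 373 and 886 in satellite cells, 10.8-fold higher in PICs (limma, adjusted p = 0.000239). Dlk1, a Delta-like protein that lacks the Notch-binding domain, gave opposite calls on its probe sets. Probe set 1449939_s_at was higher in PICs (1.07, adjusted p = 0.0169 among all probe sets) and 1442724_at was higher in satellite cells (-1.08, adjusted p = 0.00166). No direction is therefore given for Dlk1. Dll3, Dlk2, Cntn1 and Cntn6 lay at the low value level on all arrays.

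**Figure D4:**
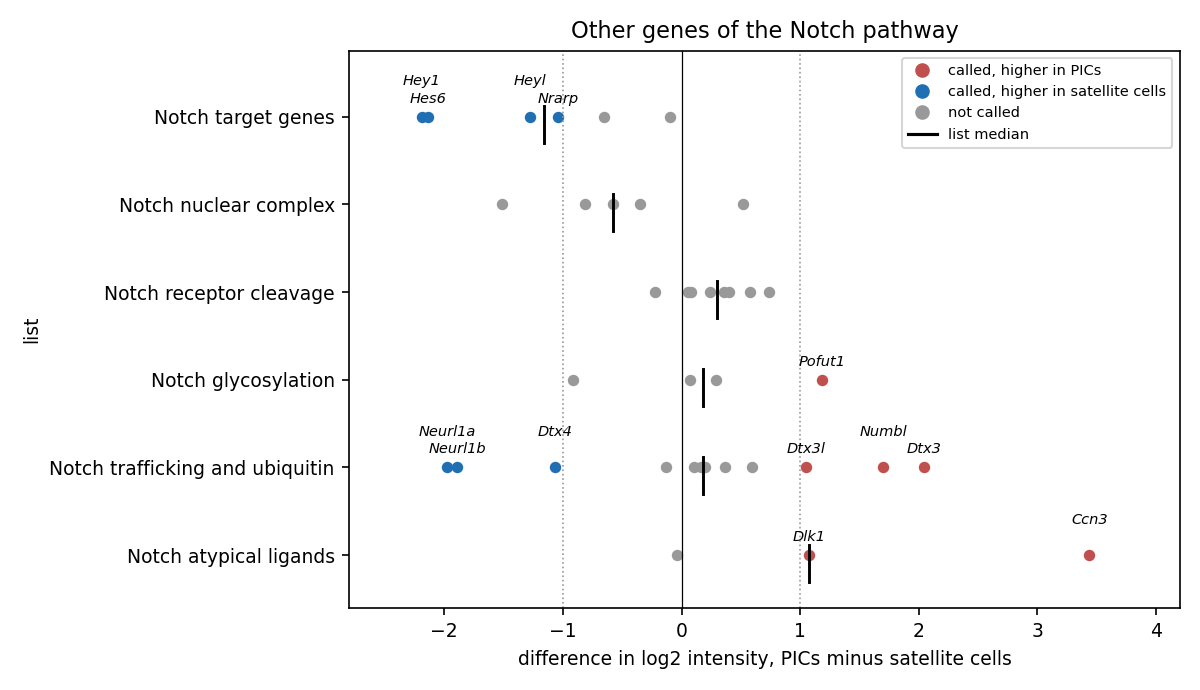
Difference in log2 intensity, PICs minus satellite cells, for 38 other genes of the Notch pathway in 6 lists (rows), with 1 point per gene, coloured by call, and the list median as a black bar. Called genes of the target list lie on the satellite side only, while the trafficking and ubiquitin list has called genes on both sides; Dlk1 is drawn for 1 of its probe sets.

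The array patterns most like those of the 2 extreme members were found among 10854 other genes, by the root mean square distance between log2 values centred on each gene's mean over the 6 arrays. Nearest to Dll1 were Aard (distance 0.08), Lmnb2 (0.13) and Mrln (0.13), with differences of -3.81, -3.98 and -3.84. Nearest to Dtx1 were Lrrn2 (0.10), Pheta2 (0.10) and Tgfbi (0.11), the last 2 with differences of 2.98 and 2.88. The satellite means of Dtx1 and Lrrn2, 3.54 and 3.21, lay under the low value level, so the order of these distances says little. With 6 arrays in 2 populations the measure mostly ranks genes by the size of their difference.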

How the data were processed

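Affymetrix arrays in 1 colour were used for the 6 samples, 200 ng of total RNA each, per the labels' protocols. The deposited table holds linear intensity values, made with GCRMA per the submitters' processing notes, for 45037 probe sets, in whole numbers; the version is not given in the sources used here. GCRMA draws low probe sets to a common floor, which narrows their spread. Scan dates were not used here.

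Symbols of the platform annotation were updated by gene number against RefSeq names. Values were taken to log2, and probe sets with 1 symbol were kept when above 4 on at least 3 of 6 arrays (18433). limma 3.58.1 in R 4.3.3 (lmFit, eBayes, two-sided) tested PICs minus satellite cells over these, with Benjamini-Hochberg adjustment over all of them. The 47 pathway genes and the marker genes used 1 probe set a gene, that of highest mean, in a fit over 10855 genes. The script was tested on simulated data. The number of arrays limits the precision. Where all 3 arrays of a population were at or under 4, the fold is a bound: the other mean minus 4.

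Members and lists were chosen with earlier results of these data known. Named were all members, up to 4 called genes per pathway list and direction, the first 3 markers of each marker list, and the 3 nearest genes by pattern; other pathway genes are given with their values. The remarks on other probe sets of Dlk1, Rbpj, Nrarp, Heyl, Pofut1, Dtx3l and Dtx4, and on single markers beyond the first 3, were chosen after their values were seen. Deviations from the population means correlated across probe sets between arrays of equal replicate number at 0.616, 0.287 and 0.641, against -0.588 to 0.169 for unequal numbers. No label ties these numbers, so the main fit took the samples as unpaired. On the ground of these correlations alone, the replicate block was run as an alternative. Alternatives changed the filter, a floor at 16, the variance model, array weights, the replicate block, the normalization, the summary per gene and the arrays left out.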

Additional observations from a re-analysis of the deposited data

How the results depend on the processing

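Over 17 alternatives, 201 of 238 values of the 14 member probe sets kept direction and call, 26 lost the call, 2 gained it and 9 changed sign. Dll1, Dner, Dtx1 and Notch1 on 1418634_at kept their calls in all 17. The count of member probe sets higher in satellite cells was 6, and 2 without the filter on low values, where 34945 probe sets were tested; with arrays left out it ranged from 2 to 6. It was 3 without PICs replicate 2 or any 1 satellite array, and 4 without PICs replicate 3. With 1 probe set a gene, 4 genes were higher in satellite cells, 2 without the filter, and 2 to 4 with arrays left out, 2 of them without PICs replicate 3. Pathway genes higher in satellite cells numbered 7, with 4 under array weights and 4 to 8 with arrays left out; the count was 4 without PICs replicate 3 or without both arrays numbered 2. The member counts higher in PICs, 3 probe sets and 2 genes, were equal with any array left out. With the replicate block, all 9 member calls were shared with the fit without it, and it gave 5354 calls over all probe sets against 5135; among pathway genes it added Spen. Where signs changed, no value was called. Notch4 was at -0.046 after a second quantile normalization and from -0.60 to 0.83 with arrays left out. Jag1 on 1421106_at was at -0.014 under array weights and from -0.024 to 0.38 with arrays left out. Adam10 was at -0.022 and Rfng at -0.10 after the second quantile normalization, and Egfl7 at 0.23 under array weights. With arrays left out, Egfl7 ranged from -0.49 to 0.54, Hes1 from -0.41 to 0.26, Ncstn from -0.046 to 0.73, Psen2 from -0.45 to 0.069 and Psenen from -0.070 to 0.23. The cause of these shifts was not tested.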
